A study of Homo sapiens with 8 samples.

Results

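The genes of 9 transcription factors that set gastric or intestinal identity were followed in HSC39, an established line of human gastric carcinoma of the signet ring type, after small interfering RNA (siRNA) against TRIM44. They were CDX1, CDX2, HNF4A, HNF4G, GATA4, GATA6, SOX2, KLF4 and KLF5, and a probe set was taken where its only annotated gene symbol was one of these 9. Of the 9 genes, 8 had such a probe set, 1 each, among 18404 genes measured. HNF4A had none and was not analysed here. Cells grown with fetal calf serum were transfected with TRIM44 siRNA 7 (2 arrays), TRIM44 siRNA 9 (2 arrays) or the negative control siRNA (4 arrays). The labels give 100 nM (written nm) for 48 h for the TRIM44 reagents, and all 3 groups are the same cell line. Each array is 1 RNA sample. The protocol text of the negative samples also names only TRIM44 siRNA, and the series text calls the comparison one with untreated cells, so the groups were taken from the treatment label of each sample. The series text counts 4 biological replicates a condition, but no source says that cultures were separate, and p-values here rest on a spread between samples that may be technical.

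These factors divide the gut tube into regions. SOX2, an HMG box protein, is a factor of the foregut epithelium and of the stomach. CDX1 and CDX2 are homeodomain proteins of the intestine, and their appearance in the stomach is a feature of intestinal metaplasia. HNF4A and HNF4G are nuclear receptors that drive enterocyte genes, GATA4 and GATA6 are zinc finger proteins of endoderm, KLF4 is linked to cells leaving the cell cycle and to goblet cells, and KLF5 to dividing epithelial cells.

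The targeted gene was lowered by both reagents. TRIM44 had log2 levels of 10.85 and 11.27 with siRNA 7, 11.11 and 11.14 with siRNA 9, and 11.91, 12.02, 11.91 and 11.77 with negative siRNA. All 4 TRIM44 siRNA arrays lay below all negative arrays, with a log2 difference of -0.81 (SE 0.10, limma adjusted p = 0.0449 over 19158 probe sets). With 1 array left out at a time it passed only without siRNA 7 array 2 (limma adjusted p = 0.0306). Without negative array 2 TRIM44 stood at -0.77 (limma adjusted p = 0.0587). Pairs of arrays correlated at 0.991 to 0.997 across probe sets. One negative array stood apart from the other negatives. The first principal component (32.5% of variance) placed both siRNA 9 arrays, at 15.5 and 17.2, together with negative array 2, at 13.6, away from the other 5 arrays, at -11.8 to -5.57. Values without negative array 2 are given where leaving it out changed a call or a member's direction, and for list genes as a count.

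With both reagents taken as 1 condition, none of the 8 lineage factors passed the test. In such bulk RNA, fewer cells with a transcript and less of it per cell cannot be told apart. Differences are TRIM44 siRNA minus negative siRNA on the log2 scale, from limma, with p-values adjusted by the Benjamini-Hochberg method over all probe sets and a threshold of 0.05. The count was 0 of 8 members, against 0.00522% of all probe sets called (1 of 19158, which is TRIM44), and at an unadjusted p under 0.05 it was 0 of 8, against 5.43% of all. For 6 members the difference was above 0 and for 2 below, from -0.12 for HNF4G to 0.20 for SOX2, with adjusted p of 0.9814 to 0.9999. Some signs and the order changed with single arrays left out. Without negative array 2, GATA4 turned to -0.07 and GATA6 to -0.00, so that 4 members lay above 0 and 4 below. HNF4G then stood at -0.02, and CDX2 was the lowest at -0.12. GATA4 also turned without siRNA 7 array 1 (-0.0127) and CDX1 without siRNA 7 array 2 (-0.0013). CDX2 reached 0.0124 with another array left out. With all 8 arrays the median of the 8 was 0.06, and that of all probe sets 0.01. The 95% confidence intervals of all 8 differences lay inside a 1.5-fold change in either direction. None of the 8 had TRIM44 siRNA arrays all above or all below the negative arrays, as 2.86% of all probe sets did.

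**Figure D1:**
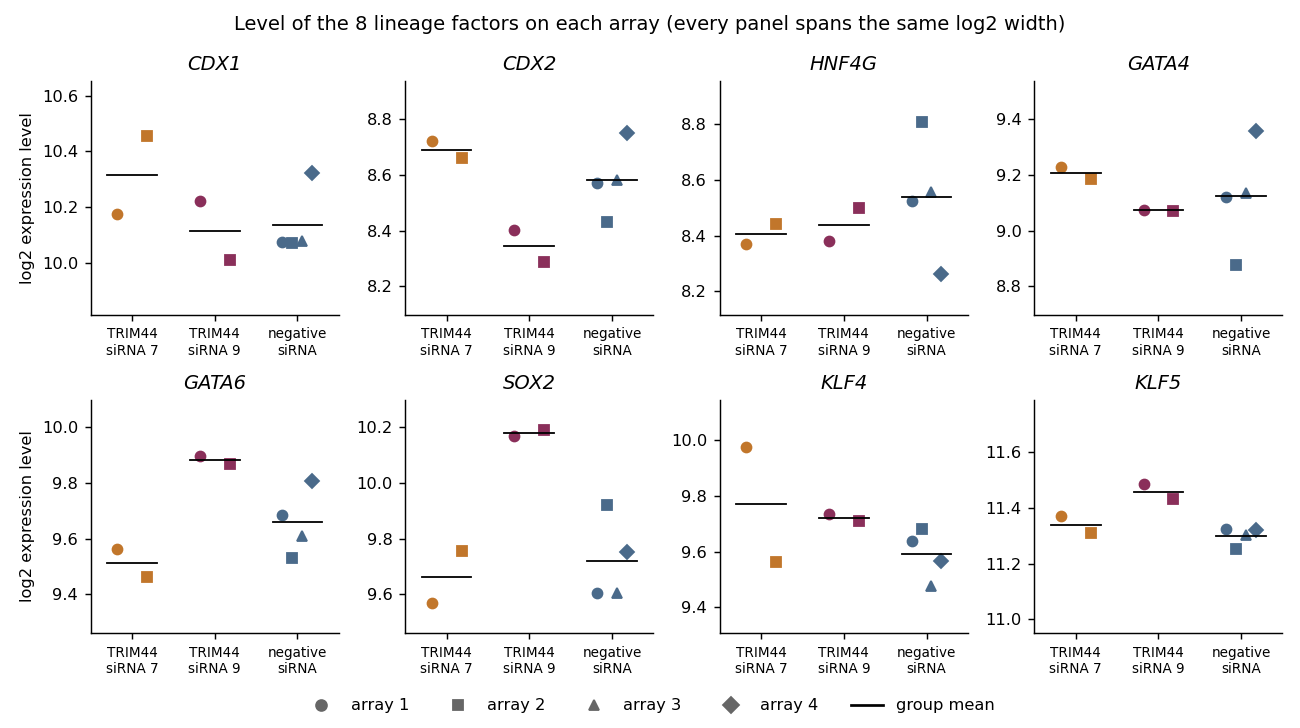
Log2 expression level (vertical axes) of the 8 lineage factors on each array, by group (TRIM44 siRNA 7, n = 2; TRIM44 siRNA 9, n = 2; negative siRNA, n = 4). Symbols give the array number and black lines the group mean; the siRNA 9 arrays of SOX2, at 10.17 and 10.19, lie above all other arrays, and levels of different genes come from different probes and are not comparable.

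Among the intestinal factors, CDX2 had log2 levels of 8.72 and 8.66 with siRNA 7, 8.40 and 8.29 with siRNA 9, and 8.57, 8.43, 8.58 and 8.75 with negative siRNA. Both siRNA 9 arrays were lower than all others, only just under negative array 2, and the siRNA 7 arrays lay inside the negative range. The difference was 0.11 for siRNA 7 (SE 0.10, limma adjusted p = 0.940) and -0.24 for siRNA 9 (SE 0.10, limma adjusted p = 0.332), so neither passed. For siRNA 9 the interval ran from 0.726 to 0.990 of the negative level. CDX1, the paralog of CDX2, had 10.18 and 10.46 with siRNA 7, 10.22 and 10.01 with siRNA 9, and 10.08, 10.07, 10.08 and 10.32 with negative siRNA. Its groups overlapped, with a difference of 0.18 for siRNA 7 and -0.02 for siRNA 9. HNF4G, the paralog of HNF4A, had 8.37 and 8.44 with siRNA 7, 8.38 and 8.50 with siRNA 9, and 8.53, 8.81, 8.56 and 8.26 with negative siRNA. All 4 TRIM44 siRNA arrays of HNF4G lay inside the negative range. Its negative arrays spread most of any member, with an SD of 0.23 (n = 4), and negative arrays 2 and 4 were the highest and the lowest. Without negative array 2 the HNF4G difference was -0.04 with siRNA 7 and -0.01 with siRNA 9, against -0.13 and -0.10 with it.

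Among the GATA factors, GATA6 had 9.56 and 9.46 with siRNA 7, 9.90 and 9.87 with siRNA 9, and 9.68, 9.53, 9.61 and 9.81 with negative siRNA. Both siRNA 9 arrays lay above all others, while siRNA 7 array 2 lay below all negative arrays and siRNA 7 array 1 among them. The difference was -0.14 for siRNA 7 (SE 0.10, limma adjusted p = 0.861) and 0.22 for siRNA 9 (SE 0.10, limma adjusted p = 0.349), a fold of 1.17 (95% interval 1.005 to 1.355) that did not pass. GATA4 had 9.23 and 9.19 with siRNA 7, 9.08 and 9.07 with siRNA 9, and 9.12, 8.88, 9.14 and 9.36 with negative siRNA. All 4 TRIM44 siRNA arrays of GATA4 lay within the negative range, which negative arrays 2 and 4 set at either end. With both reagents together GATA4 had the smallest difference in size of the 8, at 0.02 (SE 0.10), and without negative array 2 it stood at -0.07. Without that array GATA4 was at 0.00 with siRNA 7 and -0.13 with siRNA 9, against 0.08 and -0.05 with it.

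SOX2, the gastric factor, was the member with the widest range over the 8 arrays, 0.62 on the log2 scale. It had 9.57 and 9.76 with siRNA 7, 10.17 and 10.19 with siRNA 9, and 9.61, 9.92, 9.61 and 9.75 with negative siRNA. The siRNA 9 arrays lay above all others and the siRNA 7 arrays within or just below the negative range. With siRNA 9 the difference was 0.46 (SE 0.11), a fold of 1.38 with a 95% interval of 1.16 to 1.63, and it missed the threshold (limma adjusted p = 0.0821, unadjusted p = 0.00137). With siRNA 7 it was -0.06 (SE 0.11, limma adjusted p = 0.990), and 0.01 without negative array 2. The siRNA 9 call depended on the setting. Without negative array 2, the highest negative array for SOX2 and the one that lay with the siRNA 9 arrays on the first component, the siRNA 9 difference was 0.53 (limma adjusted p = 0.00991). It also passed with array weights (0.54, limma adjusted p = 0.00248), with a trended and robust prior (limma adjusted p = 0.0256) and among the upper 50% of probe sets (limma adjusted p = 0.0366). It did not pass after quantile normalization (limma adjusted p = 0.0589), after median centring (limma adjusted p = 0.112), over all probe sets (limma adjusted p = 0.213), without either siRNA 9 array (limma adjusted p = 0.503 and 0.496) or with negative array 1, 3 or 4 left out (limma adjusted p = 0.2045, 0.247 and 0.114). What sets negative array 2 apart was not tested.

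Sequence windows around the gene start are shown for SOX2, CDX2 and GATA6, the 3 members with an unadjusted p under 0.05 for siRNA 9, so that the letters at each start can be read beside the values above. The windows, from RefSeq on GRCh38.p14, run from 250 bases before the gene start to 50 after it, 5′ to 3′ on the gene's strand. Capitals mark matches, on either strand, to 7 searched motifs. The GC box of Sp and KLF proteins was searched as GGGCGG and the related CACCC box as CCACCC. The CDX motif was searched as TTTATNG, the GATA motif as AGATAA and the SOX motif as ACAATG. The HNF4 motif was searched as CAAAGTNCA, and the TATA box of core promoters as TATAAA. No 2 matches overlapped in these windows.
SOX2, chr3:181711675-181711974, plus strand: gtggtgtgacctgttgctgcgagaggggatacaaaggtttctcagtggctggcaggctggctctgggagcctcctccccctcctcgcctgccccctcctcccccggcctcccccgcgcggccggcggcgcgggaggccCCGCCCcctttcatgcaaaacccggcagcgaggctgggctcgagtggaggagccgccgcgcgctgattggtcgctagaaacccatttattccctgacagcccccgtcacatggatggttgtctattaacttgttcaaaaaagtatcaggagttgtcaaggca
CDX2, chr13:27969266-27969565, minus strand: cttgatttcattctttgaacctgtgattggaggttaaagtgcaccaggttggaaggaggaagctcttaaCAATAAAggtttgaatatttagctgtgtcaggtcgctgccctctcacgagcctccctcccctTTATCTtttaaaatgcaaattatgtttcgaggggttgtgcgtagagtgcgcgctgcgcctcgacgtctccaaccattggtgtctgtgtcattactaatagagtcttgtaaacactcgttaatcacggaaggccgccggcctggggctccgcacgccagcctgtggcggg
GATA6, chr18:22169339-22169638, plus strand: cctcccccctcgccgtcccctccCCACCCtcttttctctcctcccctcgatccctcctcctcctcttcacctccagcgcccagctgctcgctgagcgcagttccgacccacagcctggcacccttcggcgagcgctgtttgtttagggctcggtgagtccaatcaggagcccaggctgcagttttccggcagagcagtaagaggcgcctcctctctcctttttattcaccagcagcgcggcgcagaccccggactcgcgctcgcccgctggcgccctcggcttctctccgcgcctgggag
The SOX2 window held 1 GC box, which 45.0% of all 35116 windows of this length hold in at least 1 copy. The CDX2 window held a CDX motif, found in 9.73% of windows, and a GATA motif, found in 10.3%. The GATA6 window held a CACCC box, found in 34.3%. GC content was 63.3% for SOX2, 50.3% for CDX2 and 66.7% for GATA6, and the median of all windows was 58.7%. No motif match here says that a factor binds, and none was related to the expression values.

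Of the Krüppel-like factors, KLF5 had 11.37 and 11.31 with siRNA 7, 11.48 and 11.43 with siRNA 9, and 11.33, 11.25, 11.30 and 11.32 with negative siRNA. Its 2 highest arrays were those of siRNA 9, on a gene whose negative arrays differed little, with an SD of 0.03 (n = 4). The siRNA 9 difference was 0.16 (SE 0.08, limma adjusted p = 0.458), and that of siRNA 7 was 0.04. KLF4 had 9.98 and 9.56 with siRNA 7, 9.73 and 9.71 with siRNA 9, and 9.64, 9.68, 9.48 and 9.57 with negative siRNA. Its siRNA 7 arrays lay far apart, array 1 above all other arrays and array 2 inside the negative range. KLF4 had a difference of 0.18 for siRNA 7 and 0.13 for siRNA 9, each with an SE of 0.12, and neither passed.

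**Figure D2:**
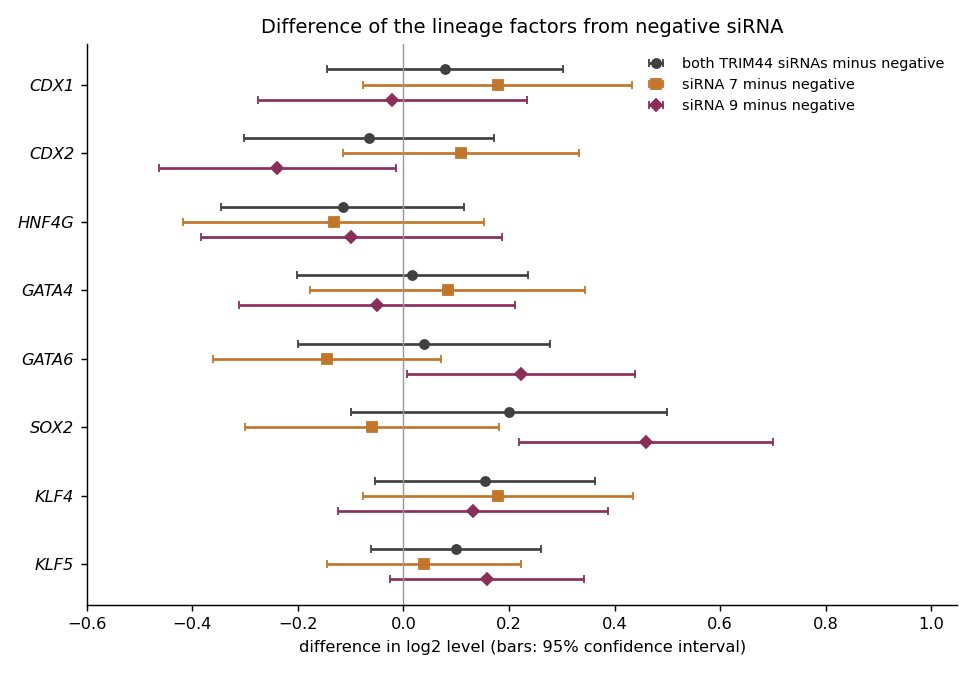
Difference in log2 level from negative siRNA (horizontal axis) for each lineage factor, for both TRIM44 reagents together, siRNA 7 and siRNA 9, with 95% confidence intervals of the limma fit. Only the siRNA 9 intervals of SOX2 (0.22 to 0.70), GATA6 (0.01 to 0.44) and CDX2 (-0.46 to -0.01) leave out 0, before adjustment over all probe sets.

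By reagent, limma called 0 of 8 members with siRNA 7, against 0.0679% of all probe sets, and 0 of 8 had an unadjusted p under 0.05, against 7.46% of all. With siRNA 9 it called 0 of 8, against 0.924% of all. At an unadjusted p under 0.05 the siRNA 9 count was 3 of 8, for SOX2, CDX2 and GATA6, against 13.6% of all. No overlap between siRNA 9 and negative arrays was seen for 5 of 8 members, CDX2, GATA6, SOX2, KLF4 and KLF5, against 22.7% of all probe sets. With siRNA 7 this held for 0 of 8, against 14.4% of all. These counts stand on 8 genes and on the same 4 negative arrays. The intervals stayed inside a 1.5-fold change in either direction for all 8 members with siRNA 7, and for 7 of 8 with siRNA 9, where SOX2 was the exception.

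The reagents were also compared with each other, as siRNA 7 minus siRNA 9. None of the 8 members passed in limma, against 2.23% of all probe sets called, and 3 of 8 had an unadjusted p under 0.05, against 15.7% of all. SOX2 differed by -0.52 (SE 0.13, limma adjusted p = 0.0583), GATA6 by -0.37 (SE 0.11, limma adjusted p = 0.126) and CDX2 by 0.35 (SE 0.12, limma adjusted p = 0.1635). The SOX2 value also turned on the setting. It passed without negative array 2 (limma adjusted p = 0.0158), after quantile normalization (limma adjusted p = 0.0377), with only the 4 arrays compared (limma adjusted p = 0.0324), with the upper 50% of probe sets (limma adjusted p = 0.0281), with a trended and robust prior (limma adjusted p = 0.01895) and with array weights (limma adjusted p = 0.0186). It did not pass after median centring (limma adjusted p = 0.0857), over all probe sets (limma adjusted p = 0.156) or with any other single array left out, where the limma adjusted p reached 0.307. The other 5 differences ran from -0.12 for KLF5 to 0.20 for CDX1. For CDX2, GATA4, GATA6, SOX2 and KLF5 the arrays of both reagents did not overlap, 5 of 8, against 48.6% of all probe sets.

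**Figure D3:**
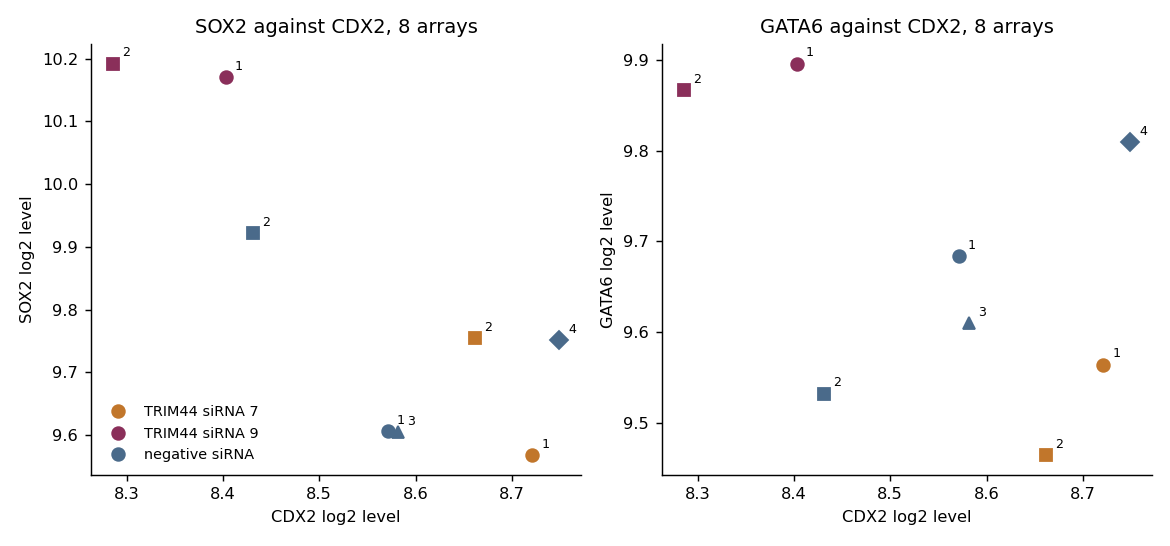
Log2 level of SOX2 (left) and GATA6 (right) against that of CDX2 on the 8 arrays; colours give the group and numbers the array. The siRNA 9 arrays combine the lowest CDX2 with the highest SOX2 and GATA6, and negative array 2, next to them in CDX2 at 8.43, has a SOX2 of 9.92 but a GATA6 of 9.53.

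Of 6 pairs of members planned for a correlation over the arrays, 4 could be computed, the others needing HNF4A. The permutations exchanged all 8 arrays freely across the 3 groups. Their p-values therefore cannot tell a difference between groups from covariation within them. CDX2 and SOX2 ran in opposite directions, with Pearson r = -0.83 (exact permutation p = 0.0145, adjusted p = 0.0578 over 4 pairs) and Spearman rho = -0.74 (exact permutation p = 0.0458, adjusted p = 0.111) over 8 arrays. The relation rested on the siRNA 9 arrays, which were also the 2 arrays farthest from the median of CDX2, and without them r was -0.49 over 6 arrays (exact permutation p = 0.324). CDX1 and CDX2 had r = 0.60 and rho = 0.67 (exact permutation p = 0.113 and 0.0831), and r = 0.38 without negative array 4 and siRNA 7 array 2. KLF4 and KLF5 had r = 0.43 and rho = 0.69 (exact permutation p = 0.290 and 0.0694), and r = 0.62 without negative array 3 and siRNA 7 array 1. GATA4 and GATA6 had r = 0.13 and rho = -0.17 (exact permutation p = 0.767 and 0.703). Without negative arrays 2 and 4, r was -0.88 over 6 arrays (exact permutation p = 0.0319, adjusted p = 0.128 over 4 pairs). Those arrays were left out as the farthest from the median of GATA4 itself. No pair passed after adjustment over the 4 pairs, where the adjusted p was 0.225 for CDX1 with CDX2, 0.387 for KLF4 with KLF5 and 0.767 for GATA4 with GATA6 by Pearson r.

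The genes whose levels over the 8 arrays were most like those of the 3 most variable members were found by Pearson r among 18403 other genes. The highest of so many values from 8 arrays are given as a description only. For SOX2 they were IGF2BP2, an RNA-binding protein gene (r = 0.99), NREP (r = 0.98) and UAP1, an enzyme of nucleotide sugar synthesis (r = 0.98). For siRNA 9 minus negative siRNA, IGF2BP2 stood at 0.23, NREP at 0.51 and UAP1 at 0.34, beside 0.46 for SOX2. For CDX2 they were RABAC1, of vesicle transport (r = 0.99), NTHL1, a DNA repair glycosylase gene (r = 0.99), and BET1L, a Golgi SNARE gene (r = 0.98). For HNF4G they were THAP5, CEP70, a centrosome gene, and TBC1D5, at r of 0.97, 0.96 and 0.95.

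Genes that act downstream of these factors, or beside them, were read from 9 lists with 143 of 154 listed genes measured. No gene in these lists passed with both reagents together, and CLCA1 was the only one of the 143 that passed for a single reagent against negative siRNA. CLCA1, a secreted goblet cell protein in the intestinal list, had 9.16 and 9.10 with siRNA 7, 7.34 and 7.35 with siRNA 9, and 7.13, 7.79, 7.53 and 7.14 with negative siRNA. Both siRNA 7 arrays lay above all others. It rose by 1.74 with siRNA 7 (SE 0.16, limma adjusted p = 0.00429) and stood at -0.05 with siRNA 9. The siRNA 7 call was lost in a fit over all probe sets, those without a symbol included, (limma adjusted p = 0.189). MEP1A, the alpha subunit of the brush border protease meprin, had 8.41 and 8.55 with siRNA 7, 9.24 and 9.28 with siRNA 9, and 8.94, 8.80, 8.80 and 8.69 with negative siRNA. The siRNA 7 arrays lay below and the siRNA 9 arrays above every negative array, with a siRNA 7 minus siRNA 9 difference of -0.78 (SE 0.11, limma adjusted p = 0.0104). Against negative siRNA, MEP1A had -0.32 with siRNA 7 (limma adjusted p = 0.353) and 0.45 with siRNA 9 (limma adjusted p = 0.0556). The siRNA 9 value passed without negative array 2 (0.45, limma adjusted p = 0.0255). It also passed after quantile normalization (limma adjusted p = 0.0482) and with the upper 50% of probe sets (limma adjusted p = 0.0213). The trended and robust prior and array weights made it pass too (limma adjusted p = 0.0247 and 0.00426), and no other setting did. The difference between the reagents did not pass without siRNA 9 array 1 or 2 (-0.79 and -0.76), where 1 siRNA 9 array remained.

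The intestinal differentiation list had 24 of 26 genes measured, of which 11 lay above 0 and 13 below with both reagents, with a median of -0.01, where all probe sets had medians of 0.01 with both reagents, -0.00 with siRNA 7 and 0.02 with siRNA 9. With siRNA 7 it had 1 gene called higher and 0 lower, 8 genes above 0 and 16 below, and a median of -0.07. With siRNA 9 it had 0 called, 12 genes above 0 and 12 below, and a median of -0.01. CDH17, an intestinal cadherin, had -0.22 with siRNA 9 (unadjusted p = 0.0311, limma adjusted p = 0.300) and -0.07 with siRNA 7. VIL1, or villin of the brush border, had -0.12 with siRNA 9 and -0.10 with siRNA 7. SPINK4, another goblet cell gene, had -0.04 with siRNA 9 and -0.48 with siRNA 7 (limma adjusted p = 0.593).

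The gastric differentiation list had 18 of 20 genes measured, 9 above and 9 below 0, with a median of -0.01, and 0 were called in any of the 4 comparisons in limma. At an unadjusted p under 0.05 it held 1 gene of 18 with both reagents, beside 5.43% of all probe sets. That was CAPN9, a stomach calpain gene, at 9.50 and 9.34 with siRNA 7, 9.46 and 9.33 with siRNA 9, and 9.84, 9.73, 9.69 and 9.47 with negative siRNA. Its difference was -0.28 (SE 0.09, limma adjusted p = 0.805), with only siRNA 7 array 1 inside the negative range. PGC, or pepsinogen C, had -0.16, VSIG1, a gastric adhesion gene, had 0.17, and CBLIF, the gastric intrinsic factor, had -0.10. Their mean levels with negative siRNA were low, at 6.22, 6.14 and 5.61 in that order. The leukocyte and endothelial genes below ran from 4.23 to 6.92, and such levels could not be told from absence. Without negative array 2 PGC stood at -0.27, VSIG1 at 0.30 and CBLIF at -0.16, none past the threshold. Over all 37 named list genes, leaving out that array moved 16 differences with both reagents by over 1.5 times and turned 0 in sign. With siRNA 7 it moved 13 and turned 1, and with siRNA 9 it moved 19 and turned 5. Among those turned with siRNA 9, CLCA1 then stood at 0.08 and SPINK4 at 0.10.

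The HNF4 target list, which gives no measure of HNF4A itself, had 17 of 18 genes measured and 0 called in any comparison. It had 9 genes above 0 and 8 below with both reagents, with a median of 0.00, and at an unadjusted p under 0.05 it held 0 genes with both reagents, 2 with siRNA 7 and 2 with siRNA 9, beside 5.43%, 7.46% and 13.6% of all probe sets. PCK1, which makes phosphoenolpyruvate for glucose synthesis, had 6.10 and 6.47 with siRNA 7, 7.12 and 6.99 with siRNA 9, and 5.97, 6.48, 6.27 and 6.66 with negative siRNA. Its siRNA 9 arrays lay above all others, at a difference of 0.71 that did not pass (SE 0.17, limma adjusted p = 0.0797). Without negative array 2 it passed, at 0.75 (limma adjusted p = 0.0300), and without negative array 4 at 0.81 (limma adjusted p = 0.0447). It also passed with the trended and robust prior (limma adjusted p = 0.0425) and with array weights (limma adjusted p = 0.00276). It did not pass after quantile normalization or median centring, over all probe sets or with only the arrays compared. Between the reagents PCK1 differed by -0.77 (siRNA 7 minus siRNA 9, limma adjusted p = 0.0645). That difference passed with negative array 1, 2 or 4 left out (limma adjusted p = 0.0409, 0.0387 and 0.0428). With negative array 3 left out it did not (limma adjusted p = 0.0959), nor with any TRIM44 siRNA array left out (-0.96 to -0.58). It also passed with the trended and robust prior, array weights and only the arrays compared (limma adjusted p = 0.0384, 0.019 and 0.0177). It did not pass after quantile normalization or median centring, or over all probe sets. SERPINA1, the antitrypsin gene, had 9.77 and 9.08 with siRNA 7, 10.10 and 9.99 with siRNA 9, and 9.94, 10.18, 9.94 and 9.92 with negative siRNA. Its siRNA 7 difference of -0.57 (limma adjusted p = 0.310) was carried mostly by array 2, and without siRNA 7 array 1 it was -0.91 (limma adjusted p = 0.0338), while without siRNA 7 array 2 it was -0.22 (limma adjusted p = 0.9994). FGB, of fibrinogen, had 0.25 and APOB, of lipoprotein particles, had -0.20 with both reagents. Mean levels of the genes in this list ran from 4.46 to 10.06, with a median of 6.51, and the low ones could not be told from absence.

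Other transcription factors of gut and endoderm had 37 of 42 genes measured, 23 above and 14 below 0 with both reagents, with a median of 0.02. Differences ran from -0.21 to 0.60 with siRNA 7, from -0.35 to 0.51 with siRNA 9, and from -0.51 to 0.78 between the reagents. Genes were named by their p with both reagents, so some at these ends are not named. In limma 0 were called in any comparison, while 1, 3, 5 and 10 had an unadjusted p under 0.05 for both reagents, siRNA 7, siRNA 9 and siRNA 7 against siRNA 9, beside 5.43%, 7.46%, 13.6% and 15.7% of all probe sets. PROX1, a homeobox factor, had 7.40 and 7.12 with siRNA 7, 7.81 and 7.72 with siRNA 9, and 7.34, 7.28, 7.43 and 6.98 with negative siRNA. The siRNA 9 arrays lay above all others, at 0.51 (SE 0.13, limma adjusted p = 0.103). FOXA1, a pioneer factor of endoderm, had 8.95 and 9.59 with siRNA 7, 9.56 and 9.57 with siRNA 9, and 9.04, 9.01, 9.08 and 9.39 with negative siRNA. All but 1 of the 4 TRIM44 siRNA arrays lay above the negative arrays, and siRNA 7 array 1 below them, at 0.29 with both reagents (SE 0.14, limma adjusted p = 0.922). BHLHA15, a factor of secretory cells, had 0.42 with siRNA 7 and 0.14 with siRNA 9, and TCF7L2, the Wnt pathway partner of beta-catenin, had -0.21 and -0.17 in that order. The other 15 KLF genes had a median of -0.05, with 4 above and 11 below 0. KLF9 had -0.19, KLF10 had 0.11, KLF11 had 0.15 and KLF7 had -0.13 with both reagents.

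**Figure D4:**
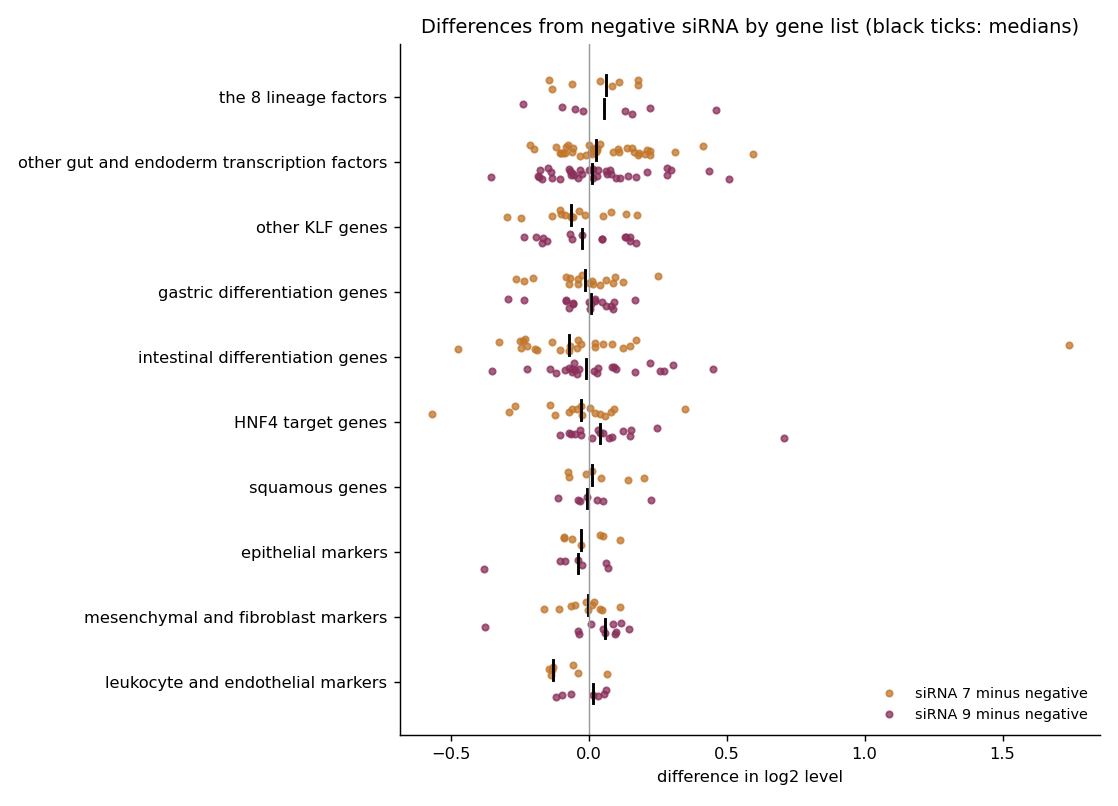
Difference in log2 level from negative siRNA (horizontal axis) for each measured gene of the lineage factors and of the 9 other lists, with siRNA 7 and siRNA 9 in separate rows and black ticks at the medians. The medians lie between -0.13 and 0.06, and the point at 1.74 is CLCA1 with siRNA 7.

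Markers of the cell type and of other cells had no gene past the threshold in limma in any comparison. Of the 7 epithelial markers 1 had an unadjusted p under 0.05 with both reagents, beside 5.43% of all probe sets. That was CDH1, or E-cadherin, at 11.97 and 11.90 with siRNA 7, 11.66 and 11.62 with siRNA 9, and 12.06, 12.06, 12.04 and 11.93 with negative siRNA, so that the siRNA 9 arrays were the lowest (-0.38, SE 0.09, limma adjusted p = 0.0711). Without negative array 2 this value of CDH1 was -0.37 and passed (limma adjusted p = 0.0335). With all arrays kept it passed with the upper 50% of probe sets (limma adjusted p = 0.0235) and the trended and robust prior (limma adjusted p = 0.00453). Array weights also made it pass (limma adjusted p = 0.00462), and no other setting did. With both reagents CDH1 stood at -0.23 (limma adjusted p = 0.901). EPCAM, KRT8 and KRT18 had 0.09, -0.07 and -0.07 with both reagents. A further KRT18 probe set had -0.15 with both reagents and -0.23 with siRNA 9 (limma adjusted p = 0.374). A further EPCAM probe set had 0.06 with both reagents. Mean levels over the arrays ran from 10.4 to 13.1 among the epithelial genes. They ran from 4.38 to 9.77 among the mesenchymal and fibroblast genes, where LUM, a matrix proteoglycan, had -0.27 with both reagents, FAP 0.11, SPARC 0.07 and COL1A1 0.06. They ran from 4.23 to 6.92 among the leukocyte and endothelial genes, where VWF had -0.10, ITGAM -0.07, CD3E -0.06 and PTPRC -0.04. The squamous genes had a median of 0.01, with SPRR3 at 0.14, IVL at 0.13, KRT13 at 0.06 and KRT5 at -0.06. No background level is given with these values, so a low level could not be told from absence. With genes centred over the arrays, the list mean of the mesenchymal genes was -0.13 to 0.09 on the siRNA 7 arrays, -0.02 and 0.05 on the siRNA 9 arrays and -0.09 to 0.06 on the negative arrays, and that of the leukocyte and endothelial genes was -0.09 to -0.03, -0.04 and 0.06, and -0.14 to 0.16 in that order. The siRNA 9 arrays lay inside the negative range for both lists.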

How the data were processed

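RNA of 8 samples of HSC39 cells was measured on 8 whole-transcript arrays. The authors deposited log2 expression values of 32321 probe sets. The submitters' processing notes name limma. Normalization, genome build and filters: not given in the sources used here. At equal rank, values of different arrays lay within 0.1805 of each other. Precision is limited by the number of arrays.

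Symbols came from the platform annotation, matched by gene ID to RefSeq (19128 of 19158 probe sets with 1 symbol found, 0 symbols changed); 1388 probe sets with several symbols and 11775 with none were left out. A gene with several probe sets is given by its brightest, unless a further probe set is stated. Both reagents against negative siRNA were fitted as 2 group means, and each reagent, and the reagents against each other, as 3 group means, over all 19158 probe sets with no filter on level. Tests were 2-sided (lmFit and eBayes, threshold 0.05), and the fits were tested on simulated data. Correlations used exact permutation. The members and lists were chosen with earlier results of these data known. Named were TRIM44, all members, up to 4 genes per list by smallest unadjusted p with both reagents, any list gene past the threshold, and the 3 genes most like each of the 3 members of largest SD. Other settings tried were median centring, quantile normalization, the upper 50% of probe sets, all probe sets, a trended and robust prior, array weights, a replicate block, 3 group means, only the arrays compared, siRNA identity as a random block, and leaving out each array in turn. R 4.3.3, limma 3.58.1, Python 3.11.15, scipy 1.17.1 and matplotlib 3.10.9 were used.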

Additional observations from a re-analysis of the deposited data

Results flagged for a closer look

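For each named gene the 4 negative arrays formed a set, and so did the 4 TRIM44 siRNA arrays, 92 sets in all. Of these sets, 9 had 1 array far from the other 3. The cutoff would flag about 5%, or 4.6 sets, of independent draws from 1 normal group. These sets share the same 8 arrays, and the TRIM44 siRNA sets pool both reagents, so 4.6 is not the number due to chance here. For CDX1 negative array 4 stood at 10.32, while the other negative arrays lay between 10.07 and 10.08. Among the TRIM44 siRNA arrays, siRNA 7 array 1 stood apart for FOXA1 at 8.95, for PGC at 6.29 and for VSIG1 at 6.54, and siRNA 7 array 2 for COL1A1 at 7.67. Among the negative arrays, array 1 stood apart for VIL1 at 11.95, array 2 for SERPINA1 at 10.18 and for KRT8 at 13.18, and array 4 for CDH1 at 11.93. The effects of the reagents differed from each other in the limma fit for CLCA1, by 1.79 (siRNA 7 minus siRNA 9, adjusted p = 0.00264), and for MEP1A, by -0.78 (adjusted p = 0.0104).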

How the results depend on the processing

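Over 32 differences of single members and their alternatives, 510 of 520 values kept their side of the threshold, and the other 10 were SOX2 passing; 22 changed sign without passing, none over 0.16 in size. Of 2337 values of 37 list genes 2300 kept their side, 29 newly passed, 8 no longer passed and 0 reversed. CLCA1 between the reagents lost its call with all probe sets (1.79, adjusted p = 0.0512) and without siRNA 9 array 1 or 2 (adjusted p = 0.0601 and 0.0605), as did MEP1A with all probe sets (-0.78, adjusted p = 0.0644). The number of members past the threshold was 0 with both reagents and with siRNA 7 under every alternative run. With siRNA 9 it was 1, SOX2, for the upper 50% of probe sets, the trended and robust prior and array weights, and 0 to 1 with each array left out. For siRNA 7 against siRNA 9 it was 1, again SOX2, for those 3 settings, quantile normalization and only the arrays compared, and 0 to 1 with each array left out. TRIM44 kept its size but lost its call after median centring (-0.81, adjusted p = 0.108), with all probe sets (-0.81, adjusted p = 0.442), with the replicate block (-0.88, adjusted p = 0.998) and with the siRNA as a random block (-0.81, adjusted p = 0.108), and was -0.87 to -0.73 with each array left out.

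Counts over all probe sets in limma moved with the setting. For both reagents 1 became 2 with the upper 50% of probe sets, 2 with the trended and robust prior, 33 with array weights and 4 with 3 group means, and 0 after median centring, with all probe sets, with the replicate block and with the random block (1054, 1467, 733 and 757 at an unadjusted p under 0.05), and 0 to 2 with each array left out. For siRNA 7, 13 became 1 after median centring (1 of 1 higher, against 1 of 13), 64, 83 and 70 with the upper 50%, the prior and array weights, 1 with only the arrays compared, 0 with all probe sets and 0 with the replicate block (1826 and 1665 unadjusted), and 1 to 35 with each array left out. For siRNA 9, 177 became 390, 405 and 2082 in the same 3 settings, 28 with all probe sets and 44 with the replicate block, and 0 to 1067 with each array left out; it was 0 without either siRNA 9 array (1449 and 1543 unadjusted) and 1067 without negative array 2. For siRNA 7 against siRNA 9, 428 became 703, 792 and 1063, 807 with only the arrays compared and 8 with all probe sets, and 0 to 1050 with each array left out; 157 of 428 were higher, and 181 of 351 after median centring. It was 1050 without negative array 2, 219 without negative array 3, 194 and 47 without siRNA 7 arrays 1 and 2, and 0 without either siRNA 9 array (1931 and 2003 unadjusted). The cause of these changes was not tested. Where 1 array of a reagent remained, its spread was taken from the other groups. The replicate numbers are not said to mark pairs, and deviations of arrays with the same number correlated at 0.02 to 0.31, so the block is an alternative only; it changed no member's call and ended that of CLCA1 with siRNA 7 (1.68, adjusted p = 0.0664), while PCK1 between the reagents passed with it (-0.77, adjusted p = 0.0401). SOX2 with siRNA 9 was 0.42 with the block (adjusted p = 0.209). Leaving out the siRNA 9 arrays from the correlations was chosen after seeing the data.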
